A study of Mus musculus with 36 samples.

Results

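Promoter loops spanning at least 600 kb were described in mouse neural stem cells (NSCs) that lack the TET enzymes (Tet triple knockout, TKO) and in wild-type (WT) NSCs. They were taken from promoter capture Hi-C (pcHiC), in which fragments of crosslinked chromatin that carry a promoter are pulled out together with the fragments ligated to them. A loop was kept by 3 criteria: its fragment pair was listed in only 1 direction within its own list, its fragment midpoints lay 600 kb or more apart, and it lay neither on chromosome 11 nor on chromosome 6 from position 100000000 on. These criteria kept 3856 of the 58145 loops listed for TKO NSCs and 4111 of the 59754 listed for WT NSCs, or 7967 of 117899 in all. Of the loops just inside the distance limit, one in TKO NSCs from the Tsc22d1 fragment spanned 600.022 kb (score 15.57) and one in WT NSCs from the Sars fragment spanned 600.014 kb (score 6.29). The loops just outside it spanned 599.909 kb (score 5.92) in TKO NSCs and 599.975 kb (score 5.87) in WT NSCs.

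The TKO cells carry knockouts of 3 Tet genes, and both genotypes share the V6.5 background, a male embryonic stem cell (ESC) line of mixed 129/C57BL/6 origin. The NSCs were derived from these ESCs in culture and harvested on day 6, at passage 1, so the knockout was already present in the ESCs from which they came. One TKO and one WT NSC library were made for pcHiC from cells fixed with 4% paraformaldehyde, each sequenced to between 170000000 and 190000000 read pairs according to the study's design text. RNA-seq came from 2 TKO and 3 WT samples of NSCs, and from 2 TKO and 3 WT samples of ESCs. The ESCs had been plated for 45 minutes to remove feeder cells. Each RNA-seq sample is called a line here, although no source used here says whether the samples are clones or separate cultures. With 1 pcHiC library for each genotype, differences between the loop lists have no replicate check and were not tested, and a pair missing from a list is not shown to be absent as a contact.

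Enhancers, which bind transcription factors, can act on promoters across large stretches of chromosome, and both are brought close in space when the intervening DNA folds into a loop. Cohesin, a ring-shaped complex, extrudes such loops and is halted by the DNA-binding protein CTCF, while promoters held by the Polycomb repressors can also gather over long distances without cohesin. TET enzymes oxidise methylated cytosine on the way to its removal, and developmental genes with remote enhancers, of which Shh and its limb enhancer inside the Lmbr1 gene are the textbook case, are where the longest functional loops are known.

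The promoters of 6 of the loci described below are shown, from 250 bases before to 50 bases after the annotated start, since their fragments carried the most numerous, the highest-scoring or the most different long-range loops, or lay at the far end of one. Sequences are from RefSeq on GRCm38.p6, the assembly also called mm10, and capitals mark CpG dinucleotides, the sites at which TET enzymes act.
Hoxd13, chr2:74667975-74668274, plus strand: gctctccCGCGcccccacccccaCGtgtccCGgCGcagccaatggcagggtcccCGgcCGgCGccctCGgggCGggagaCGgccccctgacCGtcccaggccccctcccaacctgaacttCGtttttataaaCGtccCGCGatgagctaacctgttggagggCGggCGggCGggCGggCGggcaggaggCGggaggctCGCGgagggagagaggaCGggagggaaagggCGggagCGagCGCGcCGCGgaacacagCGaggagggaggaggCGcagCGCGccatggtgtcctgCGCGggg
Sox2, chr3:34649745-34650044, plus strand: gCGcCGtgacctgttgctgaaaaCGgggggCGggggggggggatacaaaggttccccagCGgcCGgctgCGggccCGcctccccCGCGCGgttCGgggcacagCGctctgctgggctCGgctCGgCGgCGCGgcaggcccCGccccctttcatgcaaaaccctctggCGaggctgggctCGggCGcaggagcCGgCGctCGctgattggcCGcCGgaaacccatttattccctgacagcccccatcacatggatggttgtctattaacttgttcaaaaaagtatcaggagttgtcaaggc
Zic1, chr9:91365719-91366018, minus strand: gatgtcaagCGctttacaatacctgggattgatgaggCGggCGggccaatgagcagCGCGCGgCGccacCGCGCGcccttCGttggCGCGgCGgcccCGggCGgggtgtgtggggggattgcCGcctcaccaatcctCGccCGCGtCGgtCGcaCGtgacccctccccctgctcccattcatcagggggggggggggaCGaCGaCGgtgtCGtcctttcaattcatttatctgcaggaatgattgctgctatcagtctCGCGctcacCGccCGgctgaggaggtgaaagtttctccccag
Emx2, chr19:59458440-59458739, plus strand: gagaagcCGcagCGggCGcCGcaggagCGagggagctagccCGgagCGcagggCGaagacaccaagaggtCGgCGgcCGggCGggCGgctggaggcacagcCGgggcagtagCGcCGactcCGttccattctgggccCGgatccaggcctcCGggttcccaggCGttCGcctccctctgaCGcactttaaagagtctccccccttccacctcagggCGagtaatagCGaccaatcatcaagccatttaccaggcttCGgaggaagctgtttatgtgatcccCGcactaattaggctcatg
Ptpru, chr4:131838229-131838528, minus strand: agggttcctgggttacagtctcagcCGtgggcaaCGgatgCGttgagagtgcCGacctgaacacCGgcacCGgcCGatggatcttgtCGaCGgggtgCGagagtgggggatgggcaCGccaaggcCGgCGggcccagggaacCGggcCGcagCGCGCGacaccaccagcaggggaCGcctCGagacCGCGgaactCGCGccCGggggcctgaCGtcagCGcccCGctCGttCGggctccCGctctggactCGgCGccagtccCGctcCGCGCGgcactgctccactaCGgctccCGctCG
Bcl6, chr16:23988803-23989102, minus strand: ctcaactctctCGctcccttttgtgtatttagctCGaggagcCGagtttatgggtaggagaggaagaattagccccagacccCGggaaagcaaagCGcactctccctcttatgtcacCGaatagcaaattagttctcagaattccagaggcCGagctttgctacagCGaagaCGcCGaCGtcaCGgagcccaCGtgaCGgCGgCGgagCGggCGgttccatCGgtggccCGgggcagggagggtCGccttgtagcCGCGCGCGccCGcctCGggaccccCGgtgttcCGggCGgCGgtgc
These 300-base windows held 37 CpGs at Hoxd13, 27 at Sox2, 31 at Zic1, 26 at Emx2, 40 at Ptpru and 31 at Bcl6, whereas the median over all 32851 promoters in the table was 7. The promoters whose start lay in a long-range promoter fragment had a median of 18 CpGs in TKO NSCs (2283 promoters) and 18 in WT NSCs (2529 promoters). Promoters at loops of 100 to 600 kb also had a median of 18 in each library, so a CpG-rich promoter did not set the long-range loops apart. The start window of Gja1, a gap junction gene with 8 long-range loops in TKO NSCs and 9 in WT NSCs, held only 8 CpGs.

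Long-range loops formed a similar part of both lists. They made up 10.9% of the 35452 one-direction loops on the same chromosomes in TKO NSCs (95% exact binomial interval 10.6 to 11.2) and 10.5% of 39193 in WT NSCs (10.2 to 10.8). Intervals of this kind cover counting error only. The median span was 788 kb in TKO NSCs and 792 kb in WT NSCs, and the longest was 1996.4 kb in both. Scores, which are the authors' own value for each loop and were at least 5, had a median of 5.99 in TKO NSCs and 6.03 in WT NSCs. A score under 6 was held by 50.3% of the long-range loops in TKO NSCs and 48.9% in WT NSCs, and a score of 10 or more by 197 loops in TKO NSCs and 225 in WT NSCs. On the chromosomes left out, 622 one-direction loops of this length were listed in TKO NSCs and 372 in WT NSCs, which is the opposite balance to the rest of the genome.

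**Figure D1:**
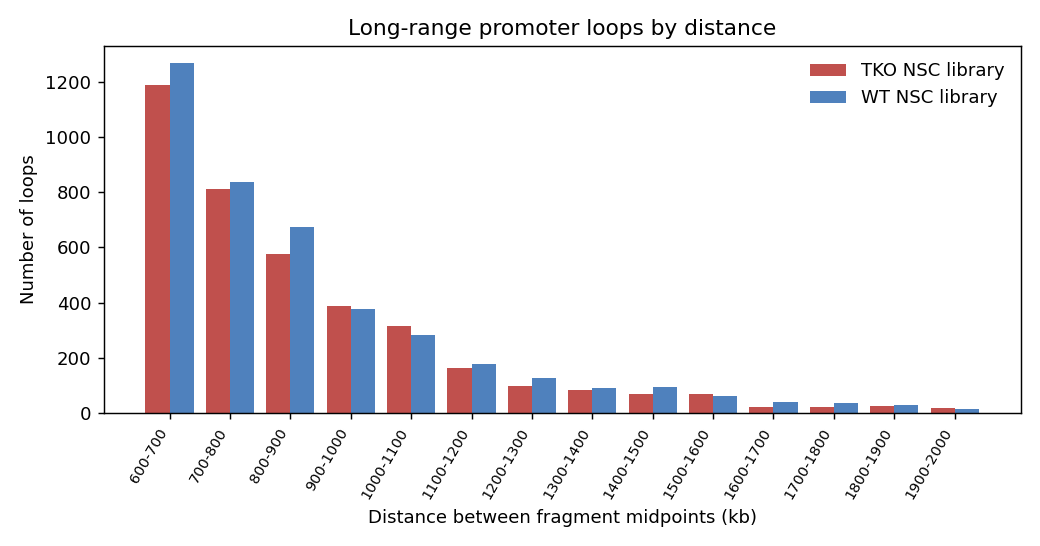
Number of long-range loops in bins of 100 kb between fragment midpoints (x axis, kb), TKO NSC library left and WT NSC library right in each bin. Numbers decline with distance in both, with 1189 loops of 600 to 700 kb in TKO NSCs and 1266 in WT NSCs, and 19 of 1900 to 2000 kb in TKO NSCs and 16 in WT NSCs.

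The decline with distance ran in parallel in the 2 libraries, as the plot of loops by distance shows. Loops of 1000 to 1100 kb numbered 315 in TKO NSCs and 282 in WT NSCs, a bin in which TKO NSCs had more. Loops of 1200 to 1300 kb numbered 97 in TKO NSCs and 129 in WT NSCs. By chromosome, the ratio of TKO to WT long-range loops ranged from 0.811 on chromosome 4 to 1.07 on chromosome 9. Chromosome 13 stood apart in both libraries: long-range loops were 20.7% of its one-direction loops in TKO NSCs and 19.1% in WT NSCs, while the other chromosomes lay between 6.48% and 15.1% in TKO NSCs and between 7.09% and 15.7% in WT NSCs.

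Protein-coding genes lay between the fragments of most long-range loops. A median of 4 genes lay between them in TKO NSCs and 5 in WT NSCs. The median density over loops was 5.47 genes per Mb spanned in TKO NSCs and 5.82 in WT NSCs. The genome value of 8.02 genes per Mb is a mean and not a median over stretches of this length. The measures are therefore unlike, and it is not shown that the loops crossed gene-poor ground. No gene lay between the fragments for 236 loops in TKO NSCs and 208 in WT NSCs. The far fragment fell within the span of a gene for 66.8% of distinct far fragments in TKO NSCs and 67.9% in WT NSCs. That share was 75.4% in TKO NSCs and 75.8% in WT NSCs for loops of 100 to 600 kb, and 86.6% in TKO NSCs and 86.0% in WT NSCs for loops under 100 kb. Of the distinct far fragments, 21.5% in TKO NSCs and 23.1% in WT NSCs were themselves the promoter fragment of a loop in either library's list.

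Few long-range loops were listed in both genotypes. The same pair in the same direction appeared 400 times, which is 10.4% of the TKO loops and 9.73% of the WT loops. Counting a pair in either direction, 461 of the 3856 TKO loops were listed in WT NSCs and 474 of the 4111 WT loops (11.5%) were listed in TKO NSCs. The same shares were 23.8% of TKO loops and 21.1% of WT loops at 100 to 600 kb, and 42.1% of TKO loops and 36.6% of WT loops under 100 kb. Among long-range loops of score 5 to 6, 6.97% in TKO NSCs and 6.16% in WT NSCs were in the other list. Among those of score 10 to 15 it was 38.9% of 167 in TKO NSCs and 46.2% of 186 in WT NSCs. In each score bin under 15 the share was lower for long-range loops than for either shorter band in both libraries, and its interval did not overlap theirs. When a far fragment within 20 kb from the same promoter fragment was also accepted, 25.3% of TKO loops and 24.1% of WT loops had a partner. In the 400 shared pairs the median score was 7.13 in TKO NSCs and 7.15 in WT NSCs, with 187 pairs higher in TKO, 212 lower and 1 equal.

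**Figure D2:**
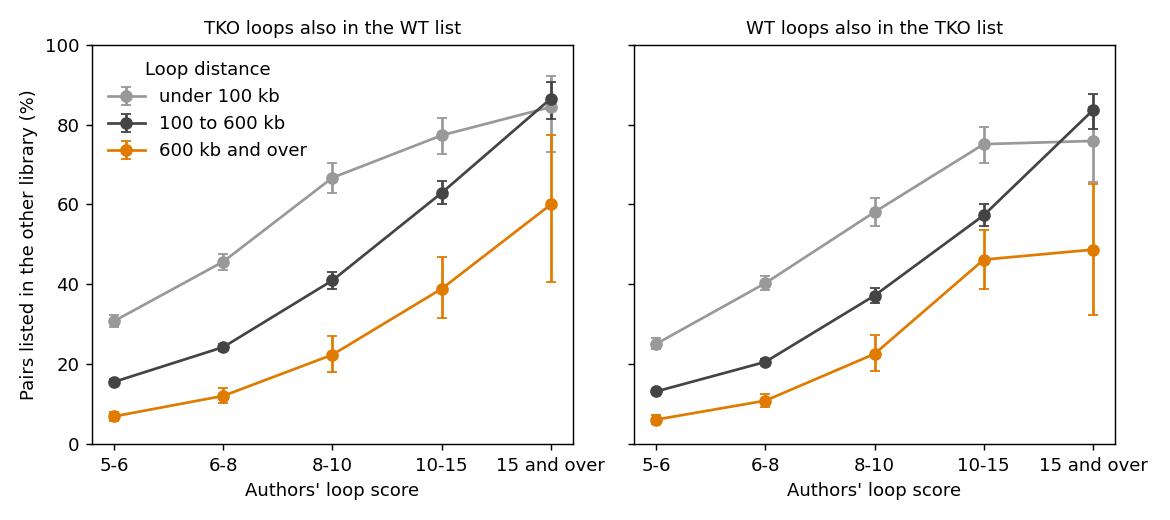
Share of loops whose fragment pair was also listed in the other library (y axis, percent), by the authors' score (x axis) and by distance band, for TKO loops (left) and WT loops (right). Bars are 95% exact binomial intervals; the share climbs with score in every band, and for scores of 15 and over reaches 18 of 30 long-range TKO loops and 19 of 39 long-range WT loops.

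Most promoter fragments with a long-range loop had a single one. The loops started from 2698 promoter fragments in TKO NSCs and 2932 in WT NSCs, and 77.1% of these in TKO NSCs and 78.0% in WT NSCs had 1 loop. Of 4700 fragments in all, 930 had a long-range loop in both libraries, 1768 in TKO NSCs only and 2002 in WT NSCs only. Fragments of shorter loops were not split in this way, so these counts are not shown to be particular to long-range loops. The number of loops differed by no more than 1 at 85.6% of the fragments. It was greater by 3 or more in TKO NSCs at 103 fragments and smaller by 3 or more at 82. Because neighbouring far fragments of one contact are listed apart, joining those within 20 kb left 3431 contacts in TKO NSCs and 3678 in WT NSCs.

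**Figure D3:**
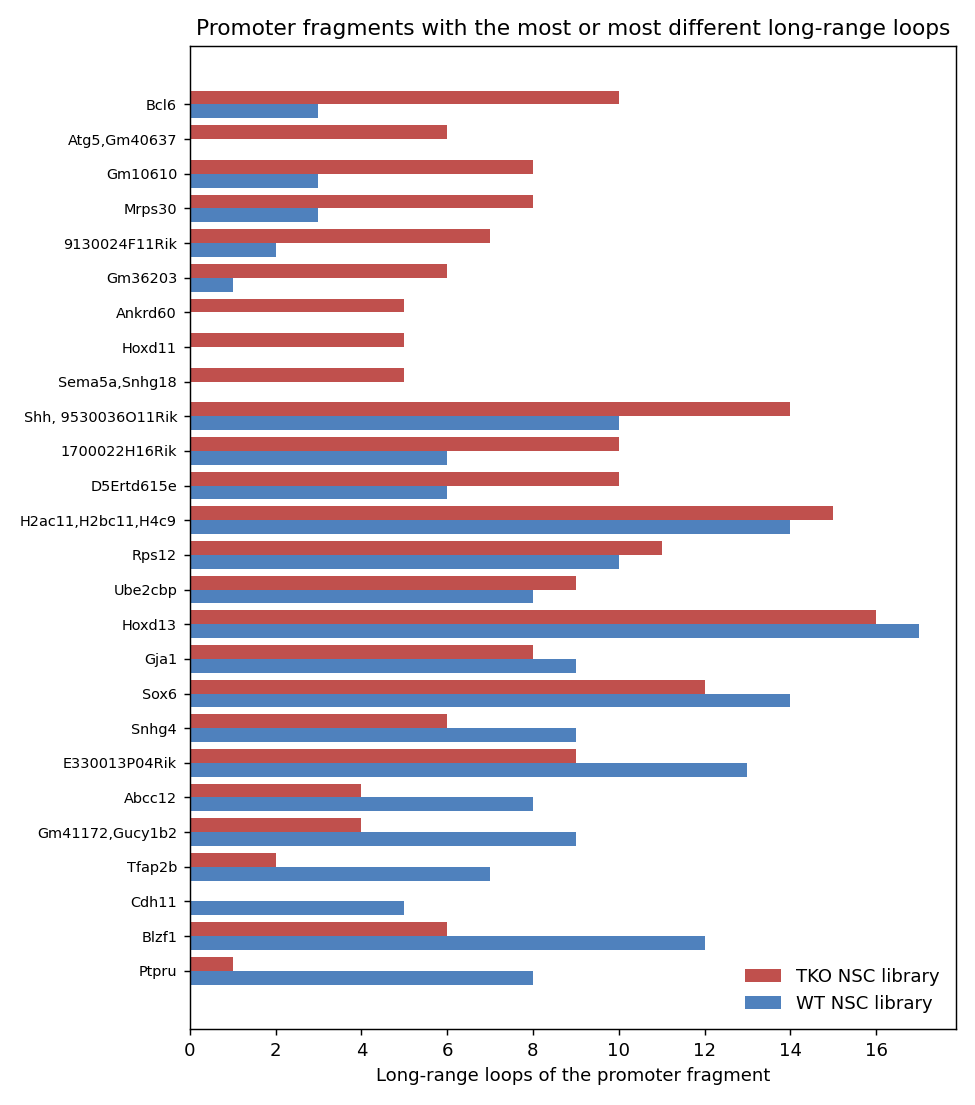
Long-range loops per promoter fragment (x axis) in the TKO (upper bar) and WT (lower bar) NSC libraries, for the gene-bearing fragments with the most loops or the largest differences. Bcl6 heads the plot with 10 loops in TKO NSCs and 3 in WT NSCs, Ptpru closes it with 1 and 8, and Hoxd13 has 16 in TKO NSCs and 17 in WT NSCs.

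The Hoxd13 fragment carried the largest number of long-range loops in both libraries. Hoxd13 encodes the homeobox factor at the 5′ end of the Hoxd cluster, which patterns digits and the hindmost trunk and is read from gene deserts on either side. It had 16 loops in TKO NSCs and 17 in WT NSCs, and 9 pairs were shared. All lay to the lower-coordinate side of chromosome 2, from 604.3 kb to 1098 kb away in TKO NSCs and from 604.3 kb to 1103 kb in WT NSCs. The far fragments formed one group from 604.3 kb outwards to Atf2, at up to 791.8 kb in TKO NSCs and 827.9 kb in WT NSCs, and a separate one at Chrna1, a muscle acetylcholine receptor gene, at 1082.5 kb and beyond in TKO NSCs and 1092.8 kb and beyond in WT NSCs. The pair at 702.4 kb scored 13.93 in TKO NSCs, the highest there, and 6.59 in WT NSCs. The pair at 635.4 kb scored 8.07 in TKO NSCs and 11.6 in WT NSCs, the highest there. The neighbouring Hoxd11 fragment had 5 loops in TKO NSCs, of scores between 5.87 and 7.79, and none listed in WT NSCs. Over all Hoxd genes, at either end, there were 45 loops in TKO NSCs and 37 in WT NSCs.

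Transcripts of these genes were scarce. Hoxd13 had 55.1 and 11.7 normalized counts in TKO NSCs, against 8.27, 0 and 5.83 in WT NSCs (log2 fold change 2.74, SE 1.18, limma adjusted p = 0.0914), a difference that did not pass the test. Hoxd11 had 70.7 and 24.4 normalized counts in TKO NSCs, against 8.27, 0 and 0 in WT NSCs (4.34, SE 1.23, limma adjusted p = 0.0161). Hoxd10, which had 4 long-range loops in TKO NSCs and 2 in WT NSCs, had 53.3 and 12.7 normalized counts in TKO NSCs and was at 0 in the 3 WT NSC lines, at least 32.0-fold higher against a floor of 3 reads over the WT group (12.3-fold without TKO replicate 1 and 51.8-fold without TKO replicate 2). Without TKO replicate 1 the call was lost for Hoxd11 (limma adjusted p = 0.147) and for Hoxd10 (limma adjusted p = 0.115).

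The fragment that holds an end of the Shh gene carried 14 loops in TKO NSCs and 10 in WT NSCs. Shh is the secreted Sonic hedgehog signal that specifies ventral neural tube and digits. The fragment, chr5:28462276-28467921, also holds the start of the long non-coding RNA 9530036O11Rik, and the files cannot tell which promoter makes the contact. Every loop pointed to higher coordinates, with far fragments from 627.6 kb to 876.3 kb away in TKO NSCs and from 736.6 kb to 850.3 kb away in WT NSCs. Most fell within Rnf32 and Lmbr1, and 7 pairs were shared. In Lmbr1 the pair at 819.3 kb scored 15.4 in TKO NSCs, the highest there, and 5.09 in WT NSCs. The pair to the adjoining fragment, at 814.2 kb, scored 10.46 in TKO NSCs and 15.61 in WT NSCs, the highest there. Shh had 3646 and 7449 normalized counts in TKO NSCs, against 6950, 9250 and 8348 in WT NSCs. The groups overlapped, and the difference of -0.64 (SE 0.22, limma adjusted p = 0.0423) lost its call with edgeR (adjusted p = 0.08), DESeq2 (0.274) and scaling to equal totals (0.0556). It was also lost without TKO replicate 1, where it came to -0.13 (limma adjusted p = 0.558), and without each WT replicate in turn (limma adjusted p = 0.065, 0.159 and 0.11).

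Sox2 had more long-range loops in TKO NSCs and lower expression. Sox2 encodes a factor that keeps neural stem cells undifferentiated. Its fragment had 8 loops in TKO NSCs and 3 in WT NSCs, and each of the 3 WT pairs was also listed in TKO NSCs. The shared pairs lay at 689.9 kb (score 6.41 in TKO NSCs, 11.94 in WT NSCs), at 829.7 kb (7.45 in TKO NSCs, 7.88 in WT NSCs) and at 834.8 kb (5.9 in TKO NSCs, 15.12 in WT NSCs), so each scored lower in TKO NSCs. Of the pairs listed only in TKO NSCs, those at 839.9 and 844.9 kb adjoin the shared ones, with scores of 10.6 and 9.04, that at 756.4 kb scored 8.7, and those at 691.1 and 804.8 kb point the other way along chromosome 3. Sox2 had 6629 and 8555 normalized counts in TKO NSCs, against 15087, 14463 and 16470 in WT NSCs (log2 fold change -1.02, SE 0.10, limma adjusted p = 1.08e-05), with no overlap.

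At Zic1 and at Emx2 the scores were lower in TKO NSCs than in WT NSCs, where these were among the highest-scoring long-range loops. Zic1 and its divergent neighbour Zic4 encode zinc finger factors of the dorsal neural tube and cerebellum. From the fragment that holds the Zic1 start, TKO NSCs had 1 loop, of score 7.44 at 661.0 kb. WT NSCs had loops of score 28.36 at 666.3 kb, the adjoining far fragment, 24.28 at 671.3 kb and 7.59 at 676.4 kb. All 4 ended in the non-coding gene Gm30905. Zic1 had 5302 and 4223 normalized counts in TKO NSCs, against 18695, 16974 and 20088 in WT NSCs (log2 fold change -1.97, SE 0.10, limma adjusted p = 8.42e-08). Zic4 had 650.2 and 434.2 in TKO NSCs, against 5318, 4414 and 5803 in WT NSCs (-3.27, SE 0.16, limma adjusted p = 7.36e-08). TKO and WT lines did not overlap for either gene.

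Emx2 encodes a homeobox factor that patterns the dorsal forebrain. Its start lay in a far fragment of loops from E330013P04Rik, a long non-coding RNA gene on chromosome 19. That promoter fragment had 9 loops in TKO NSCs and 13 in WT NSCs. The pair ending on the Emx2 start, at 687.6 kb, was not listed in TKO NSCs and scored 27.95 in WT NSCs. The next fragment in Emx2, at 682.4 kb, scored 13.96 in TKO NSCs and 16.24 in WT NSCs, and the one on the other side, at 692.8 kb, scored 10.26 in TKO NSCs and 25.47 in WT NSCs. Emx2 had 134.1 and 80.0 normalized counts in TKO NSCs, against 805.0, 503.4 and 794.5 in WT NSCs (log2 fold change -2.71, SE 0.27, limma adjusted p = 1.39e-05). E330013P04Rik itself had 0 and 33.2 normalized counts in TKO NSCs and 41.3, 8.66 and 38.9 in WT NSCs, which overlapped.

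**Figure D4:**
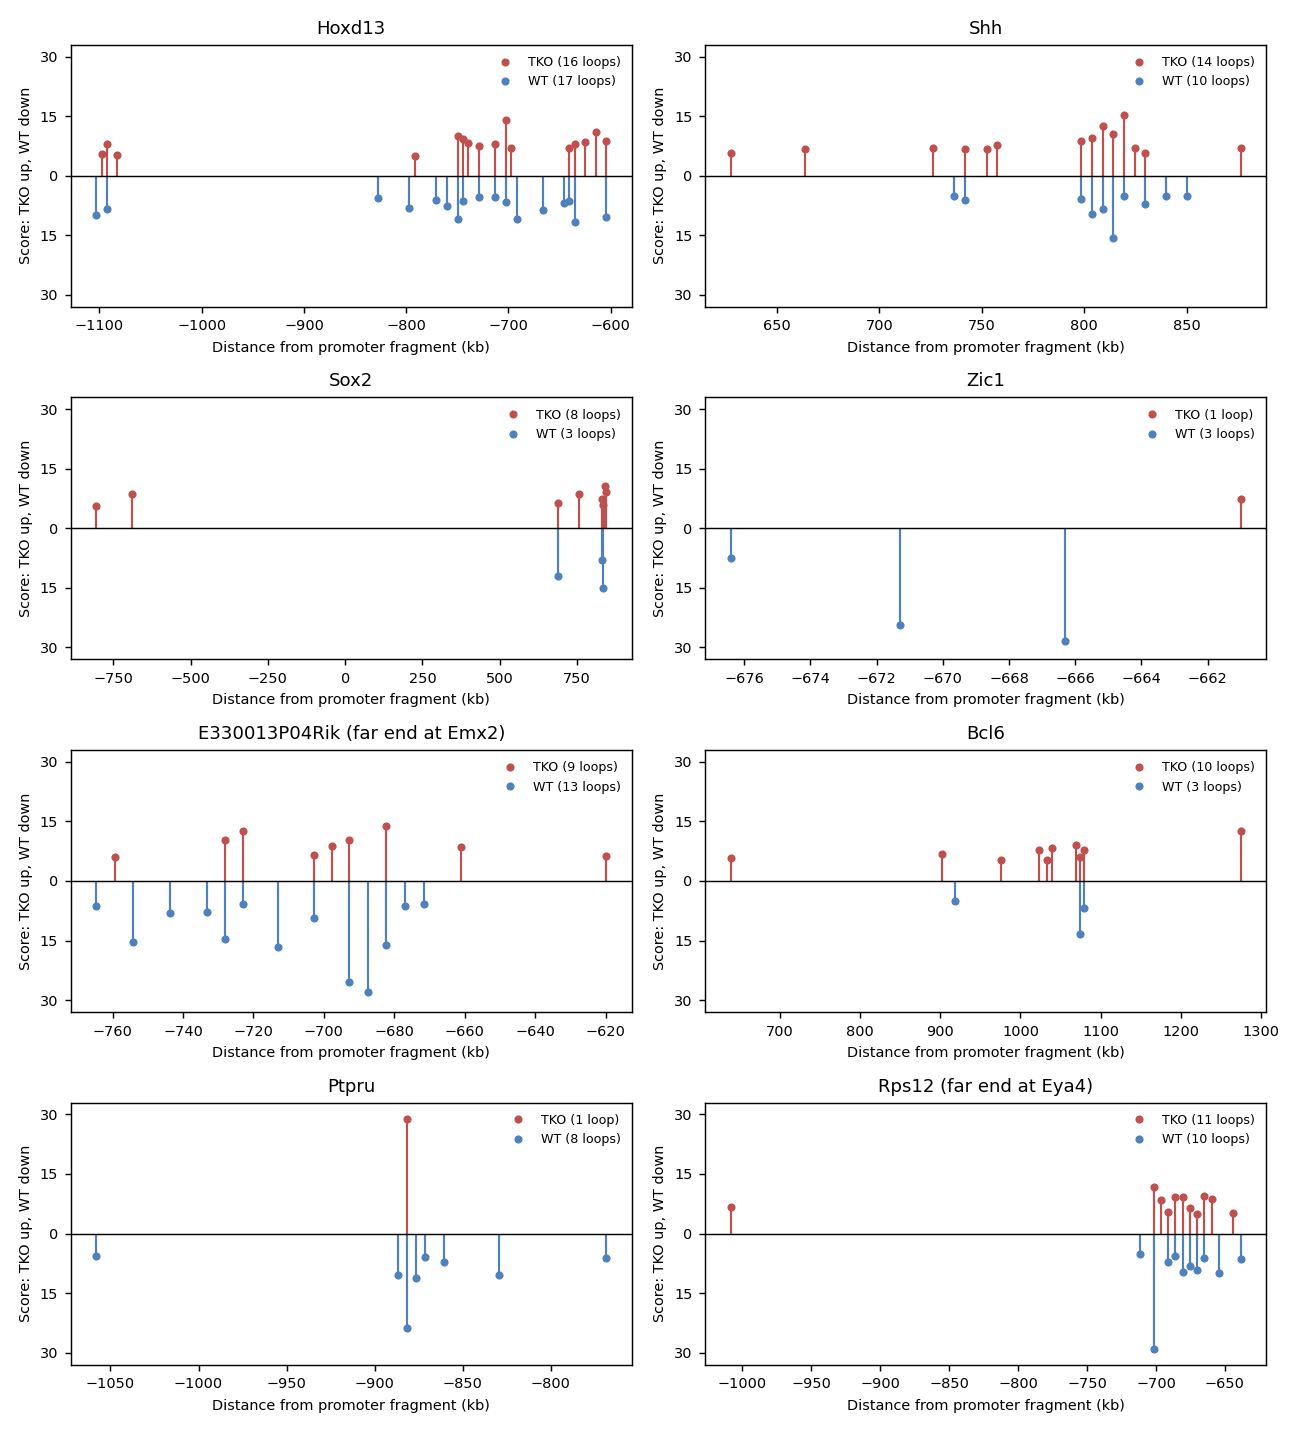
Authors' score of each long-range loop (y axis, TKO upwards and WT downwards) against its distance from the promoter fragment (x axis, kb, negative towards lower coordinates) for 8 promoter fragments. The Zic1 and E330013P04Rik panels show TKO maxima of 7.44 and 13.96 above WT scores of 28.36 and 27.95, and the Ptpru panel shows 1 shared pair of score 28.88 in TKO NSCs and 23.78 in WT NSCs.

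Bcl6 and Ptpru had the largest differences in loop number, in opposite directions. Bcl6, a transcriptional repressor that promotes neurogenesis, had 10 loops in TKO NSCs and 3 in WT NSCs. Their far ends ran from 638.8 kb to 1275 kb in TKO NSCs and from 918.4 kb to 1079 kb in WT NSCs, across the neighbouring Lpp gene and the non-coding gene A230028O05Rik. Of the shared pairs, the one at 1074.3 kb scored 6.11 in TKO NSCs and 13.42 in WT NSCs, and the one at 1079.3 kb scored 7.76 in TKO NSCs and 6.89 in WT NSCs. Bcl6 had 434.4 and 384.5 normalized counts in TKO NSCs, against 685.1, 678.8 and 542.0 in WT NSCs (log2 fold change -0.63, SE 0.16, limma adjusted p = 0.00838). The groups did not overlap, and the call was lost without TKO replicate 2 (limma adjusted p = 0.0668).

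Ptpru encodes a receptor-type tyrosine phosphatase. Its fragment had 1 loop in TKO NSCs and 8 in WT NSCs. The one pair of TKO NSCs, at 881.5 kb, was also the strongest of WT NSCs, with a score of 28.88 in TKO NSCs and 23.78 in WT NSCs. The other 7 WT loops scored between 5.65 and 11.08, and those at 871.2, 876.4 and 886.6 kb ended within 20 kb of that far fragment. Ptpru had 736.5 and 1239 normalized counts in TKO NSCs, against 1462, 1983 and 1493 in WT NSCs (log2 fold change -0.77, SE 0.20, limma adjusted p = 0.00939). The groups did not overlap, and the call was lost without TKO replicate 1 (limma adjusted p = 0.138) and without WT replicate 2 (0.0515).

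Some fragments with many loops differed little in loop number between genotypes. A fragment that holds a start of Sox6, a SoxD factor of neural progenitors and glia, had 12 loops in TKO NSCs and 14 in WT NSCs, of which 4 pairs were shared. Sox6 had 670.4 and 907.5 normalized counts in TKO NSCs, against 1399, 1712 and 1331 in WT NSCs, and was lower in TKO NSCs with no overlap (log2 fold change -0.91, SE 0.15, limma adjusted p = 0.000524). Gja1, the connexin 43 gene, had 8 loops in TKO NSCs and 9 in WT NSCs, and its expression did not pass the test (11329 and 12878 normalized counts in TKO NSCs, against 12629, 12857 and 11080 in WT NSCs, limma adjusted p = 0.937). Rps12, a ribosomal protein gene, had 11 loops in TKO NSCs and 10 in WT NSCs into and beside Eya4. The pair at 701.2 kb scored 11.77 in TKO NSCs and 29.0 in WT NSCs, the highest of the long-range loops in WT NSCs. Rps12 had 39166 and 35486 normalized counts in TKO NSCs, against 33405, 30229 and 28594 in WT NSCs (log2 fold change 0.28, SE 0.07, limma adjusted p = 0.0101), a call lost without TKO replicate 1 (limma adjusted p = 0.145). Among long-range loops in TKO NSCs, the highest score was 30.18. It belonged to a loop of 1139.1 kb from the D5Ertd615e fragment on chromosome 5, which scored 27.63 in WT NSCs. One-direction loops of 100 to 600 kb scored up to 58.86 in TKO NSCs and 37.38 in WT NSCs.

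Further fragments ranged from loops in 1 list only to similar numbers in both. The fragment with the starts of Sema5a, an axon guidance semaphorin, and Snhg18 had 5 loops in TKO NSCs and none listed in WT NSCs, all within 611.0 to 652.6 kb. The Cdh11 fragment, of a cadherin gene, had none listed in TKO NSCs and 5 in WT NSCs, all within 1239 to 1280 kb. The Atg5 fragment, of an autophagy gene, had 6 loops in TKO NSCs and none listed in WT NSCs, and that of Mrps30, a mitochondrial ribosomal protein gene, had 8 in TKO NSCs and 3 in WT NSCs. The Blzf1 fragment had 6 in TKO NSCs and 12 in WT NSCs, and the Ube2cbp fragment had 9 in TKO NSCs and 8 in WT NSCs. A loop of 1096.4 kb from the Arhgap39 fragment scored 23.37 in TKO NSCs and was not listed in WT NSCs. Tfap2b, which encodes an AP-2 factor of the neural crest, had 2 loops in TKO NSCs and 7 in WT NSCs. Expression of Sema5a did not pass the test (log2 fold change 0.09, SE 0.09, limma adjusted p = 0.474). Nor did that of Cdh11 (0.14, SE 0.06, limma adjusted p = 0.109) or Tfap2b (-0.45, SE 0.31, limma adjusted p = 0.294). Atg5 (limma adjusted p = 0.844), Mrps30 (0.232), Blzf1 (0.479) and Snhg18 (0.267) did not pass either. Ube2cbp was higher in TKO NSCs (0.94, SE 0.23, limma adjusted p = 0.00781). Its call was lost without TKO replicate 2, where the log2 fold change was 0.85. Arhgap39 was lower (-0.35, SE 0.12, limma adjusted p = 0.0385), a call lost under 6 alternatives.

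On chromosome 13, part of the long-range loops fell on the clusters of replication-dependent histone genes, which encode histones made in S phase. These genes lay at an end of 68 loops in TKO NSCs (of 270 on the chromosome) and 52 in WT NSCs (of 281), with median spans of 1540 kb in TKO NSCs and 1500 kb in WT NSCs, and at both ends of 18 in TKO NSCs and 12 in WT NSCs. The fragment with the starts of H2ac11, H2bc11 and H4c9 had 15 loops in TKO NSCs and 14 in WT NSCs, of which 6 pairs were shared. The pair joining H2ac22 and H2bc22 to H2ac7, H2bc7, H2bc8 and H3c4 spanned 1785.3 kb and scored 18.1 in TKO NSCs. In WT NSCs the same pair was listed in both directions, with a score of 24.39 in the same direction, and so was left out by the rule there. Histone genes are near-identical copies, so reads could be split among them, and most of their transcripts lack the poly(A) tail, so their expression values are uncertain and are not compared.

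Single far fragments also collected loops from several promoters. The fragment with the starts of Abhd8 and Mrpl34 on chromosome 8 was the far end of long-range loops from 7 promoter fragments in TKO NSCs and 7 in WT NSCs, 11 in all. The fragment at Rpl4 on chromosome 9 was the far end for 2 promoter fragments in TKO NSCs and 7 in WT NSCs, and the one at Wars and Wdr25 on chromosome 12, whose partners include Meg3, for 6 in TKO NSCs and 1 in WT NSCs.

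Long-range loops were counted for lists of genes of 1 function each and compared with all protein-coding genes on the chromosomes kept, of which 20.7% had one in either library. A loop was assigned to a gene when an end of the gene's RefSeq span lay in the promoter fragment, so genes that share a fragment share its loops. Among homeobox factors 17 of 54 had one (31.5%), and among Sox, NFI, Zic and other developmental factors 20 of 53 (37.7%). Among adhesion and axon guidance genes 22 of 73 had one (30.1%), among secreted signals and their inhibitors 10 of 43 (23.3%), among Polycomb genes 4 of 18 (22.2%) and among CTCF and cohesin genes 2 of 17 (11.8%). A comparison list of housekeeping genes had 7 of 24 (29.2%), in the range of the developmental lists. In the developmental factor list the loops summed to 27 in TKO NSCs and 32 in WT NSCs, and in the homeobox list to 26 in TKO NSCs and 21 in WT NSCs. They summed to 23 in TKO NSCs and 26 in WT NSCs for adhesion genes, and to 18 in TKO NSCs and 20 in WT NSCs for signals. The housekeeping genes had 2 loops in TKO NSCs and 8 in WT NSCs, the Polycomb genes 1 in TKO NSCs and 5 in WT NSCs, and the CTCF and cohesin genes none in TKO NSCs and 2 in WT NSCs.

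RNA-seq gives the expression of the genes at the promoter fragments, compared here between 2 TKO and 3 WT lines as log2(normalized count + 1) with limma, and called at an adjusted p under 0.05. In NSCs 37.7% of 17744 genes passed, 18.2% higher and 19.5% lower in TKO. Outside chromosome 11 and distal chromosome 6, 15.9% of 14043 tested genes were higher and 22.8% lower. Of the 4719 genes with a long-range loop, 3458 passed the filter on low values and matched by name; 537 of these were higher (15.5%) and 765 lower (22.1%), with a median log2 fold change of -0.03, also the median over the 14043. With libraries scaled to equal totals, 646 were higher and 667 lower. These shares lie near the background and show nothing particular to genes at long-range loops. In ESCs, where 14.3% of 17033 genes passed (7.29% higher and 7.02% lower in TKO), the background outside those chromosomes was 4.89% higher and 8.38% lower, and 4.3% of 3280 genes at long-range loops were higher and 10.2% lower. No pcHiC of ESCs was used here.

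Genes were also divided by the direction of their loop difference, with no test of one class against another. Of the tested genes with more long-range loops in TKO NSCs, 230 of 1429 were higher (16.1%) and 306 lower (21.4%). Of those with fewer, 245 of 1659 were higher (14.8%) and 391 lower (23.6%). Where the difference was 3 loops or more, 18 of 94 tested genes with more in TKO NSCs were higher (19.1%) and 16 lower (17.0%). Of 71 tested genes with fewer loops, 11 were higher (15.5%) and 21 lower (29.6%). Lower genes outnumbered higher ones in the background of all tested genes on the chromosomes kept too (15.9% higher and 22.8% lower). These classes are small, and genes that share a fragment were counted separately. Whether expression goes with loop number at this size of difference was not tested. In the 4 lists of homeobox factors, other developmental factors, signals and adhesion genes, 27 tested genes had more loops in TKO NSCs, of which 7 were higher and 12 lower in expression, 34 had fewer, of which 9 were higher and 13 lower, and 7 had as many, of which 4 were higher and none lower. Beside the background of 15.9% higher and 22.8% lower, more of these genes were called in both directions, with more or with fewer loops. Members of these lists without a long-range loop were not compared. The higher shares are therefore not shown to be particular to genes at long-range loops.

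Single developmental genes showed each combination. Nkx2-1, the ventral forebrain homeobox factor, had 3 long-range loops in TKO NSCs and 2 in WT NSCs. It had 3249 and 5263 normalized counts in TKO NSCs, against 347.2, 562.9 and 305.0 in WT NSCs (log2 fold change 3.40, SE 0.25, limma adjusted p = 1.58e-06). Dlx5, a ventral forebrain and craniofacial homeobox factor, had 5 loops in TKO NSCs and 1 in WT NSCs, with 352.7 and 287.9 normalized counts in TKO NSCs, against 74.4, 77.9 and 136.0 in WT NSCs (1.77, SE 0.31, limma adjusted p = 0.000891). Pou3f1, a POU factor of early neural and glial cells, had 4 loops in TKO NSCs and 2 in WT NSCs, with 616.2 and 564.0 normalized counts in TKO NSCs, against 229.4, 231.7 and 328.3 in WT NSCs (1.18, SE 0.20, limma adjusted p = 0.000662). In these genes both loop number and expression were greater in TKO NSCs, and expression of TKO and WT lines did not overlap. Loop numbers within 1 of each other, as at Nkx2-1, were found at 85.6% of promoter fragments.

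Isl1 had fewer loops in TKO NSCs with higher expression. Neto2 and Abcc12 each had 4 loops in TKO NSCs and 8 in WT NSCs, and their expression was lower. Isl1, a LIM homeobox factor of motor neurons and ventral forebrain, had 2 loops in TKO NSCs and 4 in WT NSCs, with 518.0 and 429.4 normalized counts in TKO NSCs, against 73.4, 107.2 and 184.5 in WT NSCs (log2 fold change 2.05, SE 0.34, limma adjusted p = 0.000589). Both Isl1 pairs of TKO NSCs, at 623.3 and 628.4 kb, were also in the WT list. Neto2, an accessory subunit of kainate receptors at the far end of a loop of 879.0 kb from the Abcc12 fragment, had 1176 and 1282 normalized counts in TKO NSCs, against 2590, 2646 and 2838 in WT NSCs (-1.13, SE 0.09, limma adjusted p = 2.37e-06), and Abcc12 was lower too (-2.47, SE 0.31, limma adjusted p = 7.35e-05). That pair scored 20.74 in TKO NSCs, where it was listed in both directions, and 21.32 in WT NSCs.

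**Figure D5:**
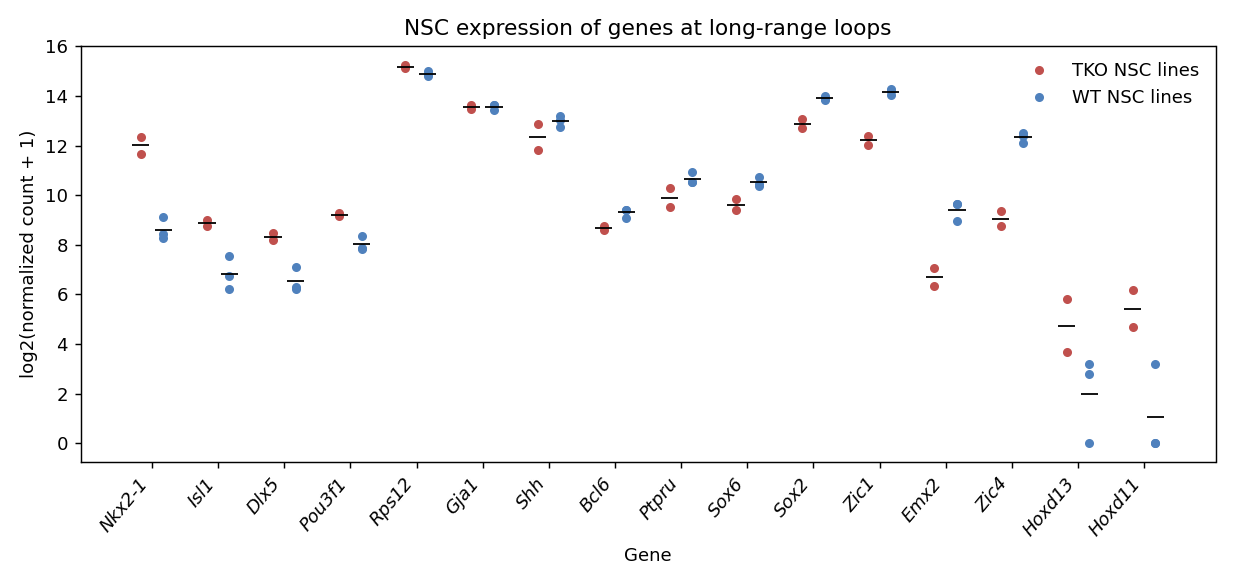
log2(normalized count + 1) in NSCs (y axis) of 16 genes at long-range loops (x axis), TKO lines left and WT lines right for each gene; points are lines and bars are means (2 TKO, 3 WT). Nkx2-1, Isl1, Dlx5 and Pou3f1 stand higher in TKO, Sox2, Zic1, Emx2 and Zic4 lower, and Gja1 and Shh overlap.

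Among the 10 largest expression increases and 10 largest decreases without overlap, only Hoxd10 and Hoxd11 had more than 2 long-range loops in either library. These genes were picked from those with a long-range loop. Of the promoter fragments with such a loop, 77.1% in TKO NSCs and 78.0% in WT NSCs had only 1. Ptgds, prostaglandin D2 synthase, with 1 loop in TKO NSCs and none in WT NSCs, had 5.51 and 7.81 normalized counts in TKO NSCs, against 581.8, 508.8 and 444.8 in WT NSCs (log2 fold change -6.07, SE 0.32, limma adjusted p = 1.57e-07). Dmrt3, a factor of dorsal telencephalon and spinal interneurons, also with 1 and none, had 71.6 and 29.3 normalized counts in TKO NSCs, against 1626, 1473 and 1404 in WT NSCs (-5.00, SE 0.29, limma adjusted p = 3.29e-07). Crym, a thyroid hormone binding protein, with none in TKO NSCs and 1 in WT NSCs, had 2620 and 992.4 normalized counts in TKO NSCs, against 95.1, 110.4 and 91.3 in WT NSCs (4.02, SE 0.33, limma adjusted p = 3.45e-06). Cd38, an NAD-consuming ectoenzyme, with the same loop counts, had 481.2 and 339.6 in TKO NSCs, against 24.8, 28.1 and 19.4 in WT NSCs (4.03, SE 0.36, limma adjusted p = 7.46e-06). Hsd17b2 and Kcne4 were at 0 in both TKO lines, at least 20.7-fold lower for Hsd17b2 and at least 13.4-fold lower for Kcne4 against a floor of 3 reads over the TKO group. Without WT replicate 2 the bound for Hsd17b2 was 13.4-fold.

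Levels of some cell type markers also differed between genotypes in the RNA-seq libraries, and their bearing on the results above was not tested. The summed level of 10 neural stem cell markers was 191000 to 201000 normalized counts in TKO NSCs and 384000 to 396000 in WT NSCs, with 9 of 10 lower in TKO, and that of pluripotency markers was 2050 to 3860 in TKO NSCs and 446 to 647 in WT NSCs, against 128000 to 184000 in ESCs. The 4 epithelial markers summed to 4570 to 8920 in TKO NSCs and 2020 to 2550 in WT NSCs, with 2 higher in TKO and none lower. In bulk samples fewer cells of a type and less RNA per cell cannot be told apart, and the part of these differences in the loop lists was not tested. Tet1 and Tet3 were lower in TKO NSCs (log2 fold change -0.47, SE 0.15, limma adjusted p = 0.032, and -0.73, SE 0.07, limma adjusted p = 1.6e-05), while Tet2 did not pass (0.14, SE 0.14, limma adjusted p = 0.459). Counts over a whole gene can include transcripts that lack deleted exons, so they check the genotype labels only in part.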

How the data were processed

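Per the submitters' processing notes, reads were trimmed with Trim Galore 0.6.5, aligned to mm10 with STAR 2.7.3a, counted with featureCounts and normalized with DESeq2 1.40.2. The authors deposited 1 RNA table for each cell type, whose signal is counts divided by size factors. Within 0.001, 100.0% of the NSC values were whole multiples of 1 read, which gave back 42821602 to 49060991 reads per NSC library. The authors deposited the pcHiC loop lists as fragment pairs with a score; no source used here names the caller or says why no score is under 5.

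Genes with a mean of 10 or more were tested as log2(value + 1) with limma 3.58.1 (R 4.3.3) and Benjamini-Hochberg adjustment, after a check on simulated data. The recovered NSC reads were also tested with edgeR 4.0.16 and DESeq2 1.42.0; ESC values also came out whole, but count tests were run for NSCs only. Of 19426 gene names, 85.8% matched RefSeq. The named genes are those of the 10 fragments with most loops, the 10 highest-scoring and 5 longest loops per library, the 10 largest loop gains and losses, the 4 list members with most loops and the 10 largest expression changes each way without overlap. Members and lists were chosen with earlier results of these data known. The deposited column names tell the TKO lines apart as tkc2 and tkh7 in both cell types and number the WT lines. No source used here says whether they are clones or separate cultures. The p-values therefore measure the spread between these samples, which is not shown to be that between independent lines. Methylation and CUT&Tag data of the series were not analysed here. The text gives only some of the genes that the rule names.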

Additional observations from a re-analysis of the deposited data

Results flagged for a closer look

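For 18 of the 76 named genes that could be tested, the TKO difference in NSCs was not the same as the TKO difference in ESCs, by limma's test of the difference between the 2 cell types at an adjusted p under 0.05. Over all genes 3177 of 15369 passed (20.7%). The fit took all libraries as independent and did not pair the TKO lines, whose names recur in both cell types. All values that follow are the NSC log2 fold change minus the ESC log2 fold change. Among the factors, Sox2 differed by -1.32, being -1.02 in NSCs and 0.30 in ESCs, and Pou3f1 by 1.16, Cdx2 by 4.98 and Dmrt3 by -5.14. The NSC call of Cdx2, with 73.5 and 64.4 normalized counts in TKO NSCs against 0, 0 and 11.7 in WT NSCs, was lost with DESeq2 (adjusted p = 0.216) and without TKO replicate 1 (limma adjusted p = 0.0657) or 2 (0.0548). That of Lrrc15 was lost with DESeq2 (adjusted p = 0.307) and without TKO replicate 1 (limma adjusted p = 0.116). Ptpru differed by -1.04, and the Polycomb gene Phc3 by -1.01. The value was positive for Cd38 (4.23), Crym (2.93), Gm10451 (5.37), Lrrc15 (4.96), Ripk3 (3.92) and Ccnj (0.67). It was negative for Rgcc (-4.71), Misp3 (-3.65), Tmem132d (-5.53) and Pbdc1 (-0.39). The ribosomal protein genes Rps12 and Rpl4 differed by 0.43 and 0.32. The loops were measured in NSCs, so none of these differences has a loop measurement in ESCs beside it here.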

How the results depend on the processing

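The long-range share was 15.7% in TKO and 15.4% in WT from 500 kb on, 2.52% in TKO and 2.44% in WT from 1000 kb on, and 10% in TKO and 9.80% in WT at scores of at least 10. It was 10.2% in TKO and 10.1% in WT on all chromosomes, and 10.6% in TKO and 10.2% in WT with pairs listed in both directions included. The share listed in both libraries was 22.3% of TKO and 21.3% of WT loops with far fragments within 20 kb, where only long-range one-direction loops of the other library counted as partners, and 26.2% of TKO and 25% of WT loops with both ends within 20 kb. It was 12.7% of TKO and 11.8% of WT loops with both directions, 16.8% of TKO and 14.7% of WT loops at scores of at least 10, and 8.18% of TKO and 7.64% of WT loops from 1000 kb on. From 1000 kb on there were 892 loops at 715 promoter fragments in TKO and 956 at 776 in WT, and at scores of at least 10 there were 197 at 159 in TKO and 225 at 176 in WT. Fragments with more loops in TKO numbered 603 and those with fewer 661 from 1000 kb on, and 124 and 148 at scores of at least 10. Of genes at loops from 1000 kb on, 163 were higher and 238 lower, with more loops in TKO 74 higher and 106 lower, and with fewer 73 higher and 119 lower.

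Leaving out each line in turn gave 2159 to 2913 genes higher and 2626 to 2972 lower in NSCs, and 505 to 1243 higher and 561 to 1032 lower in ESCs. Among genes at long-range loops it gave 317 to 454 higher and 562 to 666 lower, with more loops in TKO 126 to 185 higher and 229 to 266 lower, and with fewer 148 to 216 higher and 286 to 343 lower. Without TKO replicate 1 the higher genes at loops numbered 317, with more loops in TKO 126 and with fewer 148, and with more loops in TKO they numbered 153 without TKO replicate 2. In ESCs 505 were higher and 561 lower without TKO replicate 2, and 707 lower without WT replicate 2. Scaling NSC libraries to equal totals gave 3656 higher and 3086 lower, edgeR 3303 higher and 3266 lower, and DESeq2 3390 higher and 3578 lower. Equal totals moved the median log2 fold change of genes at long-range loops to 0.011, of those with more loops in TKO to 0.012 and of those with fewer to 0.002. Counting only genes with an annotated start in the fragment, an alternative chosen after seeing the data, gave 404 higher and 583 lower. The bounds without 1 line for genes at 0 were also added after seeing the data. Of 50 named genes called, 30 kept the call under every alternative, 20 lost it under at least 1, and none reversed.

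Same-numbered lines did not deviate together (correlations of 0.00748 and -0.0209), so the numbers do not pair the lines. With the replicate block 3120 genes were higher and 3201 lower in NSCs, and 1042 higher and 844 lower in ESCs; among genes at long-range loops 513 were higher and 713 lower. The causes of these shifts were not tested. With 1 pcHiC library for each genotype and a median score near the lowest listed, a loop found in 1 list only is not shown to differ between genotypes.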
